A study of Drosophila melanogaster with 12 samples.

Results

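The Ugt and Gst genes of Drosophila encode enzymes that join a soluble group to other molecules, and their transcripts were followed here in BG3 cells after knockdown of the cohesin subunit Rad21 or of the cohesin-loading protein Nipped-B. Members were the probe sets that name 1 gene and whose current symbol begins with Ugt and a digit, or with Gst, a class letter from D, E, O, S, T or Z, and a digit. This selected 71 of 18769 probe sets, which measure 69 of 11982 genes. The Ugt family holds 35 probe sets of 35 genes and the Gst family holds 36 probe sets of 34 genes. The rule itself used gene names alone, and it was chosen with earlier results of these data known.

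UDP-glycosyltransferases (Ugt) sit in the endoplasmic reticulum and move a sugar from a UDP-sugar, in insects mostly glucose, onto lipophilic compounds, which makes them easier to excrete. Cytosolic glutathione S-transferases (Gst) couple the tripeptide glutathione to electrophilic compounds, among them insecticides and products of lipid peroxidation. The delta and epsilon classes (GstD and GstE) are the expanded classes of insects, while the omega, sigma, theta and zeta classes (GstO, GstS, GstT and GstZ) have counterparts in other animals. Both families are best known in flies from the gut, Malpighian tubules, fat body and antennae.

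BG3 cells (ML-DmBG3) are 1 cultured line derived from the central nervous system. Each treatment had 4 arrays that the labels call biological replicates. Day 3 is represented by replicates 1 and 2, day 4 by replicate 3 and day 6 by replicate 4. Rad21 RNAi cells and Nipped-B RNAi cells received 40 µg of double-stranded RNA (dsRNA) per well at day 3 and 10 µg at days 4 and 6, and mock cells received 0 µg. The amount of dsRNA thus changes with the time of harvest, days 4 and 6 have 1 array per treatment each, and no array carries a control dsRNA. The arrays were of the Affymetrix Drosophila Genome 2.0 type, and values are log2 expression values that the authors computed with GCRMA. Probe sets that reached log2 4 on 2 or more of the 12 arrays were tested, 7350 in all. Differences between treatments are means over the time classes (day 3, and days 4 and 6), tested with limma. A probe set was called at an adjusted p (Benjamini-Hochberg, over all 7350) of at most 0.1.

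The arrays were alike in signal, with between 7199 and 7261 probe sets at log2 4 or above and a median of the tested probe sets between 9.33 and 9.41. The probe set of Nipped-B itself read 2.27 to 2.29 on every array, at background, so the arrays give no reading of the Nipped-B knockdown, and Rad21 itself was not analysed here. Of the nervous system markers, elav read 8.71 to 9.29 in Rad21, 8.19 to 9.43 in Nipped-B and 7.79 to 9.12 in mock cells, and moody and repo of glia were also above the limit. The neuronal markers nSyb, brp and fne were under the limit on every array. Of the tissues where these enzymes are best known, 0 of 4 fat body probe sets and 1 of 4 probe sets of Malpighian tubule and gut passed the limit. That probe set, Mur18B, read 4.78 to 7.23 in Rad21, 5.07 to 8.37 in Nipped-B and 5.11 to 6.79 in mock cells, and was called higher with Nipped-B RNAi (0.80, adjusted p = 0.0180) and not with Rad21 RNAi (0.24, adjusted p = 0.395). The log2 of that list's summed signal ran from 5.36 to 7.35 in Rad21, 5.57 to 8.43 in Nipped-B and 5.59 to 6.96 in mock cells. Of the 5 haemocyte markers, Hml, NimC1 and He were under the limit on every array, srp was raised in both knockdowns (0.48 with Rad21 and 0.43 with Nipped-B, on the log2 scale) and eater was lowered (-2.25 and -1.74). Among the 5 glial markers nrv2 was raised (0.50 and 0.48) and wrapper was lowered (-2.16 and -2.22). Only mock cells held wrapper above the limit (4.29 to 5.17, against 2.56 to 3.04 in Rad21 and 2.64 to 2.74 in Nipped-B cells). The eater values went down to 2.5 in Rad21 and 2.87 in Nipped-B cells, so the sizes of both decreases include values under the limit. The log2 of the summed linear signal of the haemocyte list ran from 13.13 to 13.48 in Rad21, 12.97 to 13.47 in Nipped-B and 12.51 to 13.07 in mock cells, and that of the glial list from 13.63 to 13.75, 13.53 to 13.92 and 13.39 to 13.66 in the same order. The called markers of the haemocyte list moved in opposite directions, as did those of the glial list. The glial sums overlapped mock in both knockdowns. The haemocyte sums were nearly those of srp alone (13.13 to 13.47, 12.96 to 13.46 and 12.49 to 13.05 in the same order). Of the 5 neuroblast probe sets 1 passed the limit, and 0 were called with either knockdown. The part of these lists in the results was not tested.

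The families differed in how many of their members gave signal. Of the 36 Gst probe sets 23 (63.9%) were tested, and of the 35 Ugt probe sets 6 (17.1%), against 46.9% of all probe sets that name 1 gene. These shares are a description, with no test. In the Gst family all GstO (4), GstS (1) and GstT (4) probe sets passed, with 8 of 14 GstE, 5 of 11 GstD and 1 of 2 GstZ probe sets. Of the 29 probe sets that passed, 25 were at log2 4 or above on every array. The others were Ugt317A1 (8 arrays), Ugt35C1 (6), GstD4 (5) and GstD5 (11).

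**Figure D1:**
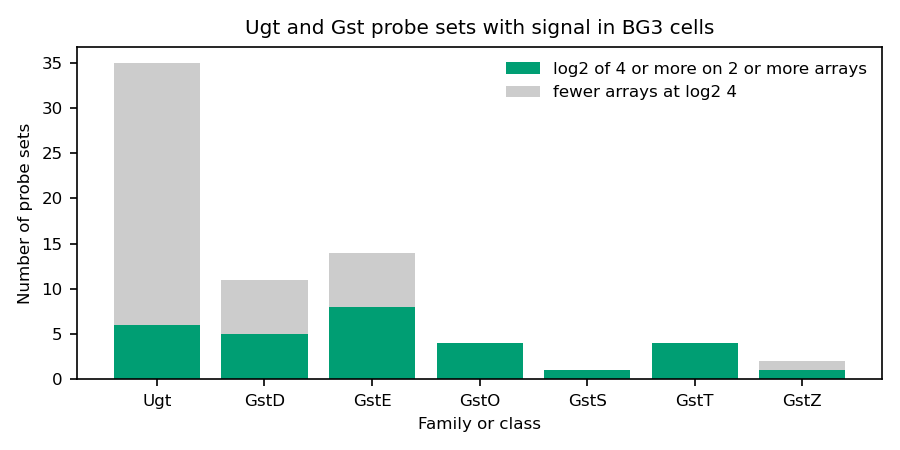
Number of probe sets (vertical axis) in the Ugt family and in each Gst class (horizontal axis), split by whether the probe set reached log2 4 on 2 or more of 12 arrays. Of the Ugt probe sets 6 of 35 did so, against 23 of 36 Gst probe sets.

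The members that passed were Ugt302C1, Ugt316A1, Ugt317A1, Ugt35C1, Ugt36A1 and Ugt36E1 in the Ugt family. In the Gst family they were GstD1, GstD3, GstD4, GstD5 and GstD9, GstE1, GstE3, GstE6, GstE7, GstE9, GstE11, GstE12 and GstE13, GstO1, GstO2 and GstO3, GstS1, the genes GstT1 to GstT4, and GstZ1. GstO2 passed with both of its probe sets. GstE9 passed with 1 of 2: the other read 2.55 to 2.59 on all arrays, at background, so that every statement on GstE9 rests on a single probe set.

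The 29 Ugt probe sets that were not tested read between 2.07 and 3.19 and were at log2 4 on no array. They were those of Ugt301D1, Ugt302E1, Ugt302K1, Ugt303A1, Ugt303B1, Ugt303B2, Ugt303B3, Ugt304A1, Ugt305A1, Ugt307A1, Ugt35A1, Ugt35B1, Ugt35D1, Ugt35E1, Ugt35E2, Ugt36D1, Ugt36F1, Ugt37A1, Ugt37A2, Ugt37A3, Ugt37B1, Ugt37C1, Ugt37C2, Ugt37D1, Ugt37E1, Ugt49B1, Ugt49B2, Ugt49C1 and Ugt50B3. The 13 Gst probe sets that were not tested read between 2.02 and 4.17. They were those of GstD2, GstD6, GstD7, GstD8, GstD10 and GstD11, of GstE2, GstE4, GstE5, GstE10 and GstE14, of GstZ2, and the second of GstE9. GstE14 is required for the synthesis of the moulting hormone ecdysone. GstD2 alone reached the limit, on 1 array. In these members a change of transcript below the detection range of the array would not be seen.

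In the Ugt family, 3 of the 6 tested transcripts decreased with both knockdowns and none increased. With Rad21 RNAi the adjusted p threshold was passed by 24.1% of all tested probe sets in the lower direction and 27.3% in the higher direction, and with Nipped-B RNAi by 19.9% and 24.4%. Over the 6 probe sets the median log2 difference was -0.93 for Rad21 and -0.63 for Nipped-B knockdown, against 0.04 and 0.05 over all tested probe sets. All 3 decreases exceeded log2 1, a size that 2.41% of tested probe sets reached downward in Rad21 cells and 1.52% in Nipped-B cells. The knockdowns were compared with the same mock arrays, so their shared direction is not independent. In bulk RNA, fewer cells that express a gene and less of its RNA per cell cannot be told apart.

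Ugt317A1 had the lowest difference from mock of all 7350 tested probe sets with both knockdowns, also with values under log2 4 set to 4. On the log2 scale they read 4.58, 4.37, 3.60 and 3.63 in Rad21 cells (replicates 1 to 4), 5.81, 4.59, 3.49 and 3.63 in Nipped-B cells, and 8.07, 7.50, 8.33 and 9.49 in mock cells. Neither knockdown overlapped mock: every mock array was above every knockdown array, and at days 4 and 6 both knockdowns were under the limit of log2 4. The difference from mock was -4.30 (SE 0.31, limma adjusted p = 4.09e-05) with Rad21 and -3.97 (SE 0.31, adjusted p = 0.000126) with Nipped-B RNAi. With values under log2 4 set to 4, which gives a bound, the transcripts were at least 17.3-fold lower with Rad21 and at least 13.4-fold lower with Nipped-B RNAi.

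Among the differences of all tested probe sets, that of Ugt35C1 had rank 4 from the lowest with Rad21 and rank 8 with Nipped-B RNAi, or rank 22 and rank 12 with values under log2 4 set to 4. It read 4.31, 3.60, 2.27 and 2.47 in Rad21 cells, 5.33, 3.85, 3.70 and 3.23 in Nipped-B cells, and 5.96, 5.27, 5.92 and 7.14 in mock cells. All 4 mock arrays were above the limit but only 1 array of each knockdown was, and only Nipped-B replicate 1, at 5.33, overlapped mock. The difference was -2.91 (SE 0.39, adjusted p = 0.000508) with Rad21 and -2.04 (SE 0.39, adjusted p = 0.00429) with Nipped-B RNAi. With values under log2 4 set to 4 these became at least 3.98-fold and at least 3.34-fold lower.

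Ugt302C1, by contrast, stayed above the limit on every array. It read 7.60, 7.36, 7.08 and 7.65 in Rad21 cells, 8.37, 7.66, 8.11 and 7.51 in Nipped-B cells, and 8.99, 8.53, 9.29 and 10.36 in mock cells. No knockdown array reached the lowest mock array. The difference was -1.87 (SE 0.28, adjusted p = 0.000886, 3.66-fold lower) with Rad21 and -1.38 (SE 0.28, adjusted p = 0.00566, 2.60-fold lower) with Nipped-B RNAi.

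**Figure D2:**
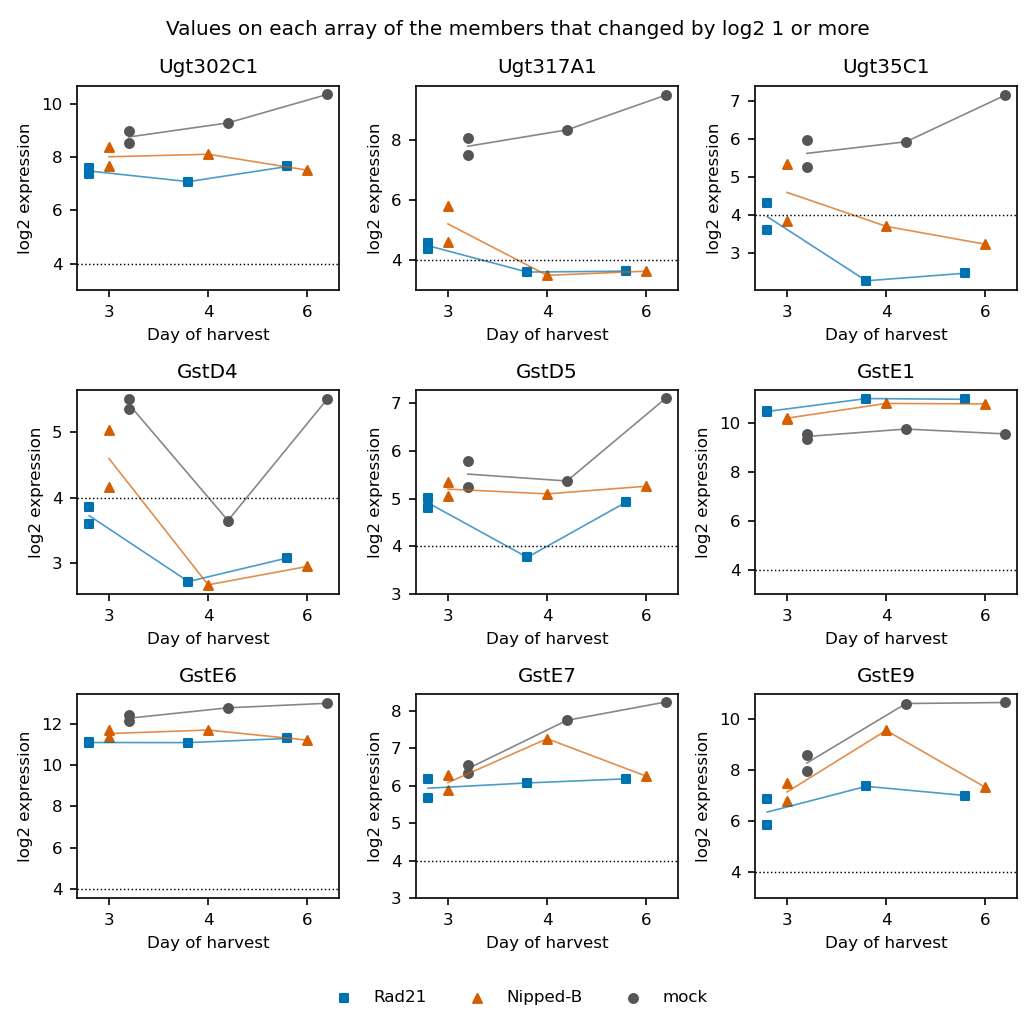
Log2 expression (vertical axis) on each array against the day of harvest (horizontal axis, days 3, 4 and 6 evenly spaced), for the 9 members called with a difference of log2 1 or more in either knockdown. Squares are Rad21, triangles Nipped-B and circles mock, lines join the day 3 mean with the later arrays, and the dotted line marks log2 4. Mock arrays lie above the knockdowns in every panel on the same day with 3 exceptions: GstE1, where they lie below, and Ugt35C1 and GstD5, where 1 mock array of day 3 (5.27 and 5.24) is under Nipped-B replicate 1 (5.33 and 5.35).

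The decrease of these 3 Ugt transcripts was larger on the later days. For Ugt317A1 the difference from the mock array of the same day was -3.31, -4.73 and -5.86 with Rad21 and -2.59, -4.84 and -5.86 with Nipped-B RNAi at days 3, 4 and 6. The knockdown arrays of days 4 and 6 were under the limit, and with values under log2 4 set to 4 the differences of those days became -4.33 and -5.49 with either knockdown, which are bounds. For Ugt302C1 it was -1.28, -2.20 and -2.71 with Rad21 and -0.75, -1.17 and -2.85 with Nipped-B RNAi. In mock cells all 3 transcripts were highest at day 6. Ugt302C1 at day 6 read 7.65 in Rad21 cells, close to their day 3 mean of 7.48, and 7.51 in Nipped-B cells, below their day 3 mean of 8.01. Mock cells read 10.36 at day 6, against a day 3 mean of 8.76. Of all tested probe sets called lower, 50.8% with Rad21 and 70.6% with Nipped-B RNAi were also further below mock at day 6 than at day 3. The change of effect between the time classes was not called for any Ugt probe set (limma, 1.24% of all tested probe sets called for Rad21 and 0.34% for Nipped-B RNAi). An unadjusted p under 0.05 was found for 2 of the 6 with Rad21 and 3 with Nipped-B RNAi, and a plain linear model called 0. The shares of all tested probe sets at that unadjusted p, and with the block that follows, were not counted. With the replicate number as a block, Ugt317A1 (-1.99, adjusted p = 0.0512) and Ugt35C1 (-2.51, adjusted p = 0.0441) were called for Rad21, and Ugt317A1 (-2.76, adjusted p = 0.0288) for Nipped-B RNAi. These sizes include values under the limit. With values under log2 4 set to 4 and no block, the changes were -1.60 (adjusted p = 0.308), -1.08 (0.515) and -2.33 (0.274) in the same order, and none was called. Because the amount of dsRNA differs between the classes, time and dose cannot be told apart.

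The other 3 Ugt transcripts were not called with either knockdown. Ugt316A1 read 10.86 to 11.39 in Rad21, 10.96 to 11.34 in Nipped-B and 10.53 to 11.28 in mock cells, and differed from mock by 0.19 and 0.18 (SE 0.12 each, adjusted p = 0.230 and 0.272). With the replicate block these became calls (adjusted p = 0.0127 with Rad21 and 0.0185 with Nipped-B RNAi). It was higher than the mock array of the same number in 4 of 4 pairs in each knockdown. Ugt36A1 differed by 0.01 and 0.11 (SE 0.20) and Ugt36E1 by 0.04 and 0.14 (SE 0.35), and both groups of knockdown arrays overlapped mock. The Ugt36E1 probe set is of a type that can match more than 1 transcript.

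In the Gst family, 14 of the 23 tested probe sets decreased and 4 increased with Rad21 RNAi, and 13 decreased and 4 increased with Nipped-B RNAi. The shares of all tested probe sets were 24.1% lower and 27.3% higher with Rad21 and 19.9% lower and 24.4% higher with Nipped-B RNAi. The median difference of the 23 was -0.34 with Rad21 and -0.30 with Nipped-B RNAi, against 0.04 and 0.05 over all tested probe sets. In 10 of the 23 all Rad21 arrays lay below all mock arrays, and in 4 all Nipped-B arrays did (15.2% and 9.77% of all tested probe sets). In 2 of the 23 all Rad21 arrays lay above all mock arrays, and in 1 all Nipped-B arrays did (14.5% and 10.8%). A decrease of log2 1 or more was called for 5 probe sets with Rad21 and 3 with Nipped-B RNAi (2.41% and 1.52% of all tested probe sets). An increase of that size was called for GstE1 with Rad21 RNAi (2.49% of all tested probe sets).

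**Figure D3:**
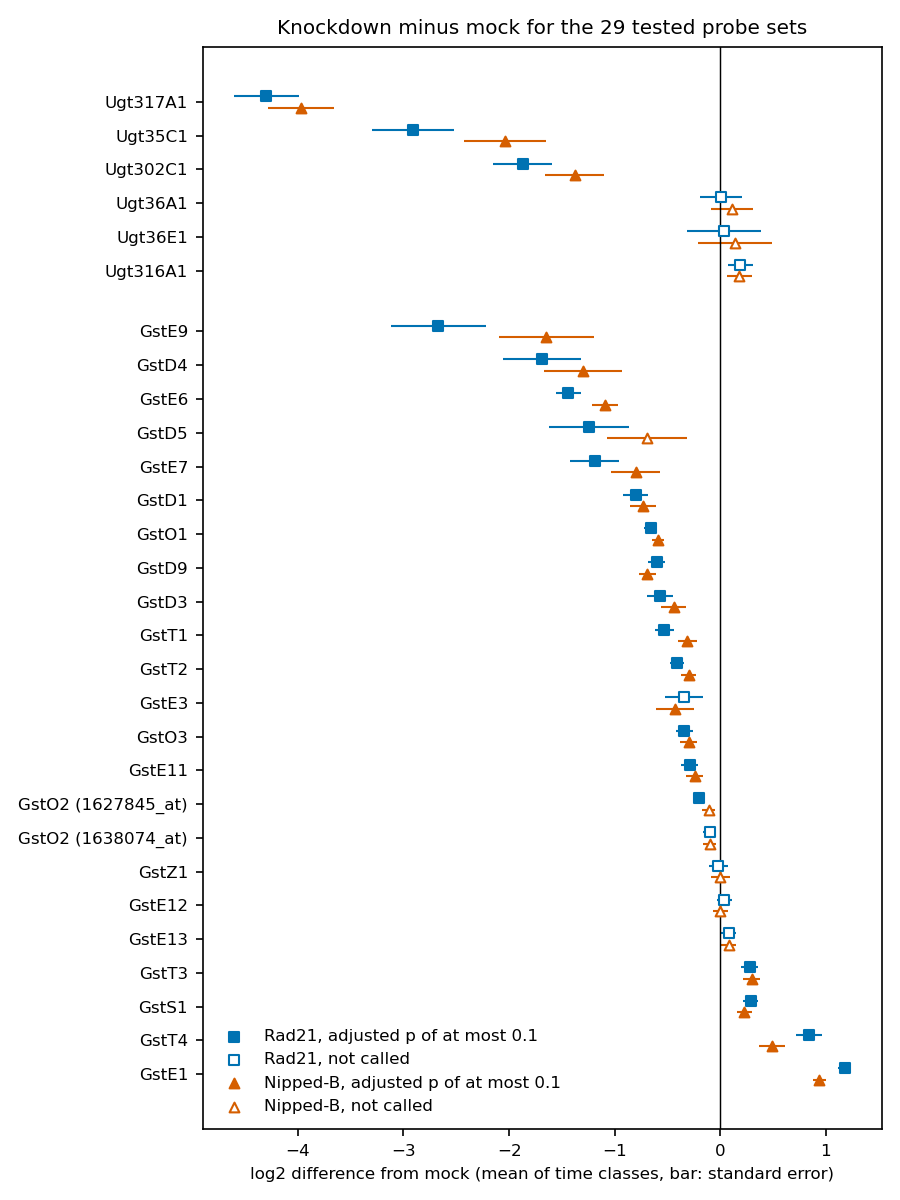
Log2 difference from mock (horizontal axis) with its standard error for the 29 tested probe sets (vertical axis), the 6 of Ugt above the 23 of Gst, each ordered by the Rad21 difference. Squares are Rad21 and triangles Nipped-B RNAi, filled where the adjusted p is at most 0.1. The lowest point is Ugt317A1 at -4.30 and the highest GstE1 at 1.18, both with Rad21 RNAi.

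Every tested member of the delta class had a lower mean in both knockdowns. All 5 tested GstD transcripts were called lower with Rad21 and 4 of them with Nipped-B RNAi, against 24.1% and 19.9% of all tested probe sets. GstD1, which in flies can break down DDT and whose reporter is used to read oxidative stress, read 12.37, 12.40, 12.01 and 12.22 in Rad21 cells, 12.63, 12.30, 12.05 and 12.34 in Nipped-B cells, and 13.41, 13.08, 12.71 and 13.02 in mock cells. Each knockdown lay below mock on every array, with differences of -0.80 (SE 0.12, adjusted p = 0.000762) for Rad21 and -0.73 (SE 0.12, adjusted p = 0.00188) for Nipped-B RNAi. GstD3 differed by -0.57 and -0.44 and GstD9 by -0.60 and -0.69, all called.

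GstD4 and GstD5 were near the limit, and their sizes depend on it. GstD4 read 3.86, 3.59, 2.72 and 3.08 in Rad21 cells, 5.03, 4.16, 2.67 and 2.95 in Nipped-B cells, and 5.35, 5.5, 3.65 and 5.5 in mock cells. Mock replicate 3 stood apart from the other mock arrays and overlapped both knockdowns. The difference was -1.69 (SE 0.37, adjusted p = 0.00629) with Rad21 and -1.30 (SE 0.37, adjusted p = 0.0249) with Nipped-B RNAi, or -1.09 and -0.79 with values under log2 4 set to 4, both still called. Without mock replicate 4 the Nipped-B difference was -0.84 (adjusted p = 0.0286).

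GstD5 read 5.01, 4.81, 3.77 and 4.93 in Rad21 cells, 5.35, 5.05, 5.10 and 5.26 in Nipped-B cells, and 5.24, 5.79, 5.37 and 7.11 in mock cells. Rad21 cells lay below mock, with a difference of -1.24 (SE 0.38, adjusted p = 0.0272), while Nipped-B cells overlapped mock. The Nipped-B difference of -0.69 (SE 0.38) was not called (adjusted p = 0.194), but was called with the replicate block (adjusted p = 0.0470). Without mock replicate 4, which read 7.11, it was -0.25 (adjusted p = 0.527), and without mock replicate 3 it was -1.12 and called (adjusted p = 0.0186). The Rad21 difference was -0.81 without mock replicate 4 (adjusted p = 0.0528).

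The epsilon class moved in both directions. With Rad21 RNAi 4 of the 8 tested GstE transcripts decreased and 1 increased, and with Nipped-B RNAi 5 decreased and 1 increased. Of all tested probe sets 24.1% decreased and 27.3% increased with Rad21, and 19.9% and 24.4% with Nipped-B RNAi. GstE9 changed the most of all Gst members. It read 6.85, 5.86, 7.36 and 7.0 in Rad21 cells, 7.50, 6.78, 9.54 and 7.32 in Nipped-B cells, and 8.60, 7.94, 10.59 and 10.63 in mock cells. Rad21 cells lay below mock throughout, and Nipped-B cells overlapped mock through replicate 3 at day 4. The difference was -2.67 (SE 0.45, adjusted p = 0.00169, 6.37-fold lower) with Rad21 and -1.65 (SE 0.45, adjusted p = 0.0207, 3.14-fold lower) with Nipped-B RNAi, or -1.10 (adjusted p = 0.0249) without Nipped-B replicate 4.

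GstE6 decreased with both knockdowns as well. It read 11.10, 11.11, 11.10 and 11.30 in Rad21 cells, 11.69, 11.39, 11.71 and 11.22 in Nipped-B cells, and 12.42, 12.15, 12.79 and 13.01 in mock cells. Neither knockdown reached the lowest mock array, and the differences were -1.44 (SE 0.12, adjusted p = 7.32e-05) and -1.09 (SE 0.12, adjusted p = 0.000442).

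GstE7 read 6.18, 5.68, 6.07 and 6.18 in Rad21 cells, 6.29, 5.87, 7.25 and 6.25 in Nipped-B cells, and 6.56, 6.34, 7.74 and 8.23 in mock cells. Rad21 cells lay below mock (-1.19, SE 0.23, adjusted p = 0.00346), and Nipped-B cells overlapped mock (-0.80, SE 0.23, adjusted p = 0.0261). As for GstE9, Nipped-B replicate 3 was the highest of its group.

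GstE1 went the other way, and was the only member called with an increase of log2 1 or more from mock. It read 10.46, 10.52, 11.02 and 10.99 in Rad21 cells, 10.19, 10.24, 10.82 and 10.80 in Nipped-B cells, and 9.38, 9.55, 9.77 and 9.57 in mock cells. Every knockdown array was above every mock array. The difference was 1.18 (SE 0.06, adjusted p = 1.83e-05, 2.27-fold higher) with Rad21 and 0.94 (SE 0.06, adjusted p = 8.61e-05, 1.92-fold higher) with Nipped-B RNAi.

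The remaining GstE transcripts changed little. The GstE11 difference was -0.29 (adjusted p = 0.0190) with Rad21 and -0.24 (adjusted p = 0.0463) with Nipped-B RNAi. The Nipped-B call of GstE11 was lost without mock replicate 1 or 3 or Nipped-B replicate 2 or 4 (adjusted p between 0.111 and 0.140), and with no filter on low values (0.110). GstE3 was called with Nipped-B RNAi (-0.43, adjusted p = 0.0865) and not with Rad21 RNAi (-0.34, adjusted p = 0.146, or 0.0183 with the replicate block). Its Nipped-B call was lost without any 1 of mock replicates 1, 2 and 3, Rad21 replicates 1 and 2 and Nipped-B replicates 1, 2 and 4, with adjusted p between 0.116 and 0.232, with no filter on low values (0.269) and in a plain linear model (0.144). GstE12 (0.04 and 0.00) and GstE13 (0.08 and 0.08) were not called.

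Members of the other classes changed by less than log2 1. In the omega class, which includes thiol transferases, GstO1 differed by -0.66 (SE 0.06, adjusted p = 9.55e-05) and -0.59 (SE 0.06, adjusted p = 0.000292), and GstO3 by -0.34 and -0.30, all called. The 2 probe sets of GstO2 gave different calls. One was called lower with Rad21 RNAi (-0.20, adjusted p = 0.0300) and not with Nipped-B RNAi (-0.11, adjusted p = 0.176, or 0.0660 with the replicate block), and its Rad21 call was lost without Rad21 replicate 1 (adjusted p = 0.104). The other was not called with either knockdown (-0.10 each).

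The theta class was split. GstT1 (-0.53 and -0.31) and GstT2 (-0.41 and -0.30) decreased with both knockdowns, and GstT3 (0.28 and 0.30) and GstT4 (0.84 and 0.49) increased with both. GstS1, the only sigma member, which in flies conjugates products of lipid peroxidation, read 14.59 to 14.69 in Rad21, 14.43 to 14.67 in Nipped-B and 14.18 to 14.52 in mock cells. It was called higher by 0.29 with Rad21 and by 0.23 with Nipped-B RNAi. The GstS1 probe set, like that of Ugt36E1, is of a type that can match more than 1 transcript. GstZ1, whose class includes an enzyme of tyrosine breakdown, differed by -0.02 and 0.00 and was not called.

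Position along the chromosomes gives another view, since many of these genes lie in runs of family members with at most 2 other protein-coding genes between neighbours. The run of 11 GstD genes on arm 3R, in the order GstD10, GstD9, GstD1, GstD2, GstD3, GstD4, GstD5, GstD6, GstD7, GstD8, GstD11, had 5 tested members. The run of 10 GstE genes on arm 2R, in the order GstE10, GstE1, GstE2 to GstE9, held opposite calls: GstE1, near one end, was higher and GstE6, GstE7 and GstE9, toward the other, were lower with both knockdowns. Between them GstE2, GstE4 and GstE5 were near background, and GstE8 has no probe set of its own. GstE3, also between them, was above the limit on all 12 arrays. It differed from mock by -0.34 with Rad21 RNAi, not called, and by -0.43 with Nipped-B RNAi, called. A run of 10 Ugt genes on arm 3R, in the order Ugt35C1, Ugt302K1, Ugt302E1, Ugt302C1, Ugt35E1, Ugt35E2, Ugt35B1, Ugt35A1, Ugt304A1, Ugt303A1, had only Ugt35C1 and Ugt302C1 above the limit, both of them lower in both knockdowns. Ugt317A1, with the largest decrease, has no family member next to it. Neighbouring members are related in sequence, and how far their probe sets cross-hybridise was not tested.

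**Figure D4:**
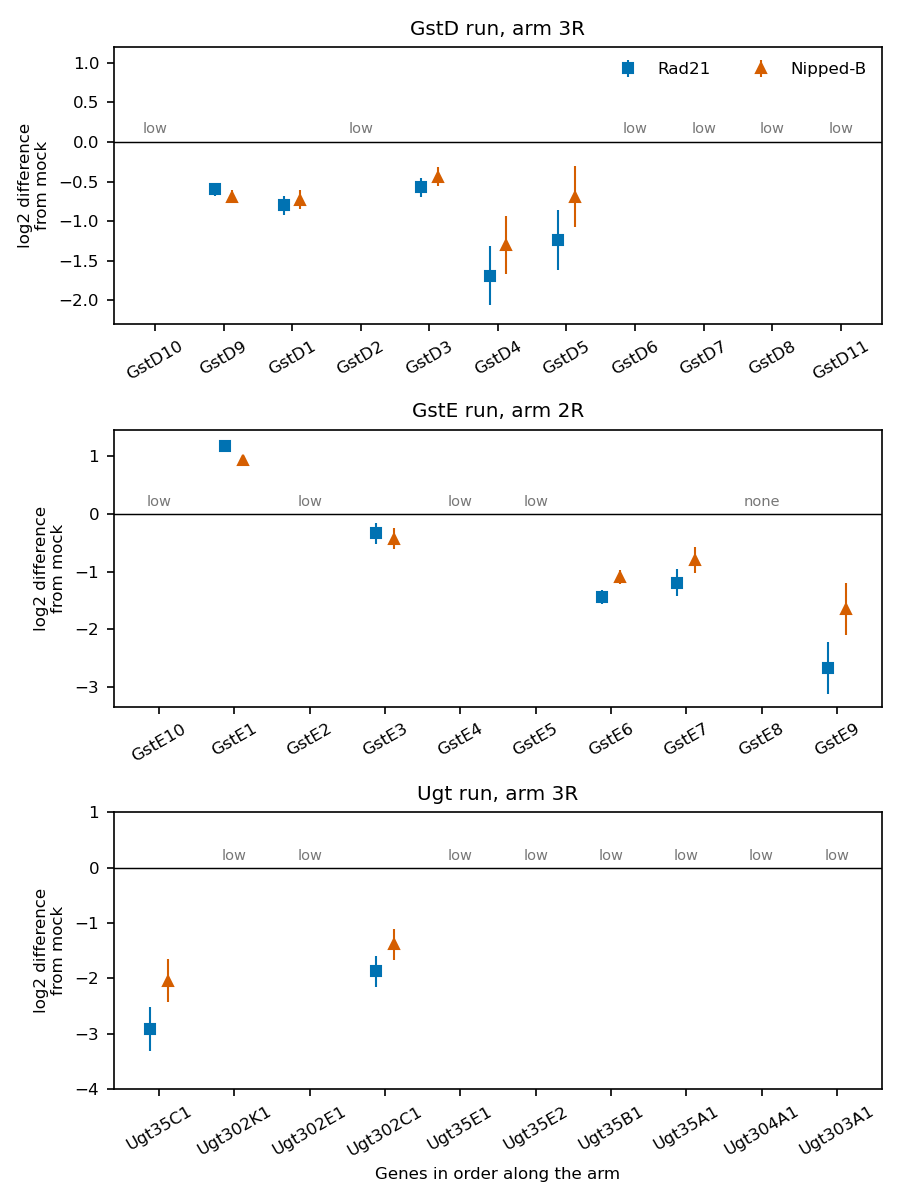
Log2 difference from mock with its standard error (vertical axis) for the genes of 3 runs, in their order along the chromosome arm (horizontal axis, not to distance). Squares are Rad21 and triangles Nipped-B RNAi, "low" marks a gene whose probe set was under the limit and "none" a gene without a probe set of its own. All tested members of the GstD and Ugt runs lie below 0, and in the GstE run GstE1 lies above 0 and the other 4 below.

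The knockdowns were also compared with each other. None of the 29 probe sets was called between Rad21 and Nipped-B RNAi in limma, where 0.0952% of all tested probe sets were. An unadjusted p under 0.05 was found for 0 Ugt and 4 Gst probe sets in limma and for 0 and 2 in a plain linear model, which also called 0. The share of all tested probe sets at that unadjusted p was not counted. Among the members with the larger differences were GstE9 (-1.02, SE 0.45), GstD5 (-0.56, SE 0.38) and Ugt302C1 (-0.49, SE 0.28), all lower in Rad21 cells. GstT4 (0.35, SE 0.12) and GstE1 (0.24, SE 0.06) were higher in Rad21 cells. The Ugt35C1 difference, -0.86 (SE 0.39), rested mostly on values under the limit and was -0.26 (SE 0.34) with values under log2 4 set to 4. Without Nipped-B replicate 4, GstE9 (-1.58, adjusted p = 0.0629) and GstT1 (-0.32, adjusted p = 0.0643) were called.

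Several members also differed between the times of harvest in mock cells. Of the 23 Gst probe sets 11 were higher and 2 lower at days 4 and 6 than at day 3, against 14.4% and 20.8% of all tested probe sets. GstE9 was higher by 2.34 (SE 0.64, adjusted p = 0.0286), GstE7 by 1.54 (SE 0.33, adjusted p = 0.0117) and GstT4 by 1.17 (SE 0.16, adjusted p = 0.00217). Smaller increases were called for GstT2 (0.93), GstE13 (0.84), GstO1 (0.78), GstE6 (0.62), GstT3 (0.59), GstT1 (0.52), GstO3 (0.38) and GstZ1 (0.33), and decreases for GstE12 (-0.81) and for the GstO2 probe set that was called with neither knockdown (-0.53). No GstD transcript was called, although GstD1 and GstD4 were without mock replicate 4, GstD5 without mock replicate 3 and GstD1 without Nipped-B replicate 3 or 4. Of the Gst increases, that of GstE9 was lost without mock replicate 2 (adjusted p = 0.151), that of GstE6 without mock replicate 2 or 4 (0.185 and 0.150) and that of GstO3 without mock replicate 2 or 3 (0.247 and 0.117). GstZ1 was lost without any 1 of the mock arrays, without replicate 1 or 2 of either knockdown, with no filter on low values and in a plain linear model. Of the 6 Ugt probe sets, Ugt317A1 (1.13) and Ugt302C1 (1.06) were called higher and Ugt36A1 (-0.77) and Ugt316A1 (-0.49) lower, with adjusted p between 0.0642 and 0.0930. These 4 Ugt calls were all lost without mock replicate 1, 2 or 4, in a plain linear model and with no filter on low values. Only Ugt316A1 was called without Rad21 replicate 1 or 2. The call of Ugt317A1 was also lost without replicate 3 or 4 of either knockdown, and that of Ugt36A1 without Nipped-B replicate 1 or 2. With the replicate block in limma, 12 Gst probe sets were called higher and 5 lower. The 14.4% and 20.8% given above are of the fit without the block, and the shares with it were not counted. The block added GstD1 (-0.38, adjusted p = 0.00893), GstD3 (-0.23, adjusted p = 0.0666), GstS1 (-0.16, adjusted p = 0.0508) and GstE1 (0.20, adjusted p = 0.0577). In the Ugt family 3 probe sets were called higher and 2 lower, with Ugt35C1 (0.92, adjusted p = 0.0763) added. The numbers of day 3 differ from those of days 4 and 6, so the block does not pair this comparison. It takes the differences between cultures out of the error, and its p-values are too small here. Days 4 and 6 have 1 mock array each, so time cannot be told apart from differences between cultures.

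**Figure D5:**
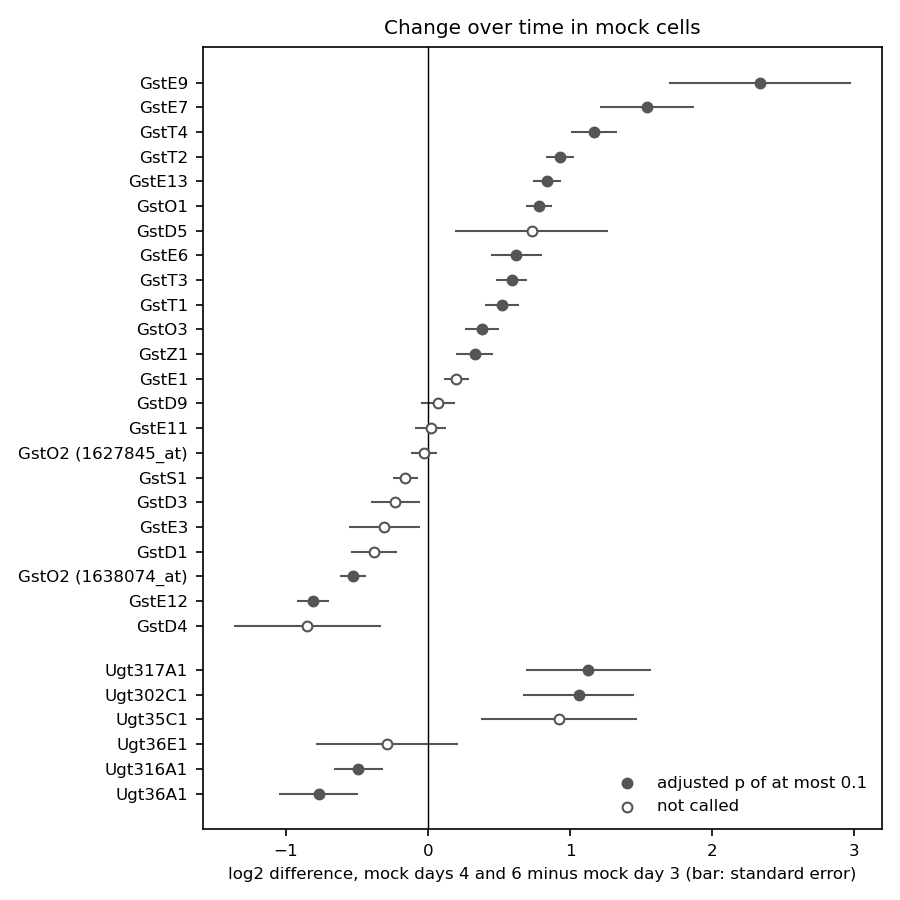
Log2 difference with its standard error (horizontal axis) between mock arrays of days 4 and 6 and mock arrays of day 3 for the 29 tested probe sets (vertical axis), the Gst family above the Ugt family. Filled points have an adjusted p of at most 0.1, and GstE9 at 2.34 is the highest.

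Of the called decreases in the Gst family, 11 of 14 with Rad21 and 11 of 13 with Nipped-B RNAi were larger at day 6 than at day 3, against 50.8% and 70.6% of all tested probe sets called lower. GstE9 was -1.91, -3.23 and -3.63 from the mock array of the same day at days 3, 4 and 6 of Rad21 RNAi, and -1.13, -1.04 and -3.31 with Nipped-B RNAi. In Rad21 cells GstE9 itself read 6.36 as the day 3 mean, 7.36 at day 4 and 7.0 at day 6, against 8.27, 10.59 and 10.63 in mock cells. The GstT4 difference from mock was instead smaller on the later days, 1.30, 0.68 and 0.08 with Rad21 RNAi, and GstT4 read 10.47 in Rad21 and 10.39 in mock cells at day 6. A change of effect between the time classes was called for 1 Gst probe set, GstD9 with Nipped-B RNAi (-1.01, SE 0.17, adjusted p = 0.0909).

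GstD9 read 10.90, 11.02, 10.15 and 10.43 in Rad21 cells, 11.08, 10.93, 9.95 and 10.19 in Nipped-B cells, and 11.14, 11.24, 11.25 and 11.29 in mock cells. Mock cells were level in time and both knockdowns were lower at days 4 and 6 than at day 3. The Nipped-B call for GstD9 was lost in a plain linear model and without any 1 array other than mock replicate 3 and Nipped-B replicates 3 and 4. For Rad21 RNAi no Gst probe set was called in limma, where 1.24% of all tested probe sets were, or in a plain linear model. An unadjusted p under 0.05 was found for 10. With the replicate block 6 were called: GstD9 (-0.75), GstT4 (-0.92), GstO1 (-0.41) and GstE11 (-0.31) in the lower direction, and GstO3 (0.56) and GstE12 (0.42) in the higher. The shares of all tested probe sets at that unadjusted p and with the block were not counted.

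Genes that supply these enzymes or act beside them were measured on the same arrays. A list of 22 such genes had probe sets for 20, of which 16 passed the limit. Among these, 2 increased and 5 decreased with Rad21, and 2 increased and 4 decreased with Nipped-B RNAi. Of all tested probe sets 27.3% increased and 24.1% decreased with Rad21, and 24.4% and 19.9% with Nipped-B RNAi. Gclc, the catalytic subunit of the enzyme that limits glutathione synthesis, differed by -0.61 with Rad21 (adjusted p = 0.00159) and -0.50 with Nipped-B RNAi (adjusted p = 0.00571). Its levels were 9.07 to 9.33 in Rad21, 9.10 to 9.56 in Nipped-B and 9.63 to 10.03 in mock cells. MRP, an exporter of conjugates, was lower (-0.46 and -0.27), and Mdr49, another exporter, higher (0.69 and 0.49), as was sgl, which makes UDP-glucuronate (0.27 and 0.24). Clic and eEF1gamma, which carry a glutathione transferase fold, were lower (-0.21 and -0.19, and -0.38 and -0.39). Trxr1, whose enzyme reduces thioredoxin, was called lower with Rad21 RNAi (-0.20, adjusted p = 0.0358), and its Nipped-B difference of -0.12 (adjusted p = 0.174) was not called. The 4 listed regulators of detoxification genes, cnc, Keap1, maf-S and Hr96, were tested and none was called with either knockdown, with differences between -0.12 and 0.09.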

How the data were processed

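RNA of BG3 cells was measured on 12 arrays, 4 in each of 3 treatments. The authors computed the deposited log2 values with GCRMA from the probe intensities; its version was not given in the sources used here. A fitted background shrinks low values, so differences of dim probe sets are uncertain, and arrays carry no read depth.

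Of 18952 probe sets 183 controls were left out. Gene identifiers of the platform annotation were updated through a RefSeq table of Release 6 (13544 matched, and all 71 members). Of the other 18769 probe sets 13647 name 1 gene, 402 several and 4720 none. Probe sets at log2 4 or more on at least 2 arrays (39.2%) entered a limma fit (limma 3.58.1, R 4.3.3) of 6 means, 1 for each treatment in each of 2 time classes, with 6 contrasts and moderated variances with a trend. The paper's methods name a balanced analysis of the same factors and the threshold of 0.1. The fit was tested on simulated data with independent noise on each array. Such data lack the shared deviations of replicate numbers described below, so they do not check the fit under them. Summaries used Python 3.11.15, pandas 2.3.3, numpy 2.4.6 and matplotlib 3.10.9.

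Members called with a difference of log2 1 or more are given on every array and other called members by their differences; the array values of GstD1 and GstD9 were added after they were seen. Members and lists were chosen with earlier results of these data known. Arrays of the same replicate number deviated together (correlations across probe sets from 0.364 to 0.658 within treatment and time class, and 0.492 to 0.792 within treatment, where the numbers share the day of harvest), so the number was taken as a pairing, and the fit with it as a block is given where it changes a call. The alternatives were no filter, a limit of log2 5, no variance trend, a plain linear model, median centring, values under log2 4 set to 4, the replicate block and leaving out each array; the block for mock cells over time was added after the values were seen. Sequences of the members were not analysed here.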

Additional observations from a re-analysis of the deposited data

Results flagged for a closer look

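In 6 of the 87 groups of 4 arrays checked (29 tested probe sets in 3 treatments), the lowest or highest array lay far from the other 3, by a gap above Dixon's critical value. Chance alone gives about 1 in 20 such groups where the 4 arrays are alike. All 6 of the distant arrays were replicate 3 or 4, the only arrays of days 4 and 6 in their treatment. GstD5 was 3.77 in Rad21 replicate 3, against 4.81 to 5.01 in the other Rad21 arrays. GstE3 was 5.52 in Rad21 replicate 4, against 6.00 to 6.09, and 5.23 in Nipped-B replicate 4, against 5.95 to 6.07. GstE6 was 11.30 in Rad21 replicate 4, against 11.10 to 11.11. In mock replicate 3, GstD3 was 12.84, against 13.26 to 13.32, and GstD4 was 3.65, against 5.35 to 5.5. The cause of these gaps was not tested.

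The effect of Nipped-B RNAi on GstD9 differed between days 4 and 6 and day 3 by -1.01 on the log2 scale (limma adjusted p = 0.0909). As given above, this call was lost in a plain linear model and without most of the single arrays, and time and dose cannot be told apart. Outside the tested probe sets, GstD2 read 4.17 in Nipped-B replicate 3, above the highest mock value of 3.5.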

How the results depend on the processing

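Counts of called members moved by no more than 1.5 times under the alternatives tried, except as follows. Shares of all tested probe sets were counted for the main fit only. For mock days 4 and 6 against day 3, the 4 Ugt calls became 0 with no filter and in a plain linear model. For the change of effect between time classes, the replicate block gave 2 Ugt and 6 Gst calls for Rad21 and 1 Ugt call for Nipped-B RNAi, median centring gave 1 Gst call (GstD9) for Rad21, and the plain linear model gave 0 Gst calls for Nipped-B RNAi. Leaving out 1 array at a time, Ugt calls ran from 3 to 4 for Rad21 and 3 to 5 for Nipped-B against mock, 0 to 5 for mock over time, and 0 to 4 and 0 to 2 for the change of effect of Rad21 and Nipped-B RNAi. Gst calls ran from 17 to 19 for Rad21 and 15 to 18 for Nipped-B against mock, 0 to 2 between the knockdowns, 9 to 14 for mock over time, and 0 to 5 and 0 to 4 for the change of effect of Rad21 and Nipped-B RNAi. Most of the highest counts came without mock replicate 3: 5 Ugt calls for Nipped-B against mock, 4 Ugt and 5 Gst calls for the change of Rad21 effect, and 2 Ugt and 4 Gst calls for that of Nipped-B. The 2 Gst calls between the knockdowns came without Nipped-B replicate 4. The cause was not tested.

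The direction turned only for 4 members near 0 that were not called. With median centring, GstE12 and GstZ1 were each at -0.01 with Nipped-B RNAi. Leaving out 1 array at a time, GstE12 ran from -0.04 to 0.11 with Rad21 and -0.07 to 0.08 with Nipped-B RNAi, GstZ1 from -0.07 to 0.02 and -0.08 to 0.08, Ugt36A1 from -0.24 to 0.27 and -0.14 to 0.37, and Ugt36E1 from -0.34 to 0.42 and -0.24 to 0.52. Ugt36A1 with Nipped-B RNAi was called at its highest value, without mock replicate 3 (adjusted p = 0.0437). The replicate block changed no knockdown call beside those of Ugt316A1, GstD5, GstE3 and GstO2 given above. With 12 arrays, 1 at each of days 4 and 6 per treatment, the values of those days have no replicate of their own, and changes of members under log2 4 cannot be measured.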
